A study of Mus musculus with 12 samples.

Results

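The 43 genes described here encode the NRF2 switch and the enzymes of glutathione, thioredoxin and NADPH metabolism that cells use against peroxides and reactive electrophiles. They were the rows of the deposited expression table that carried the symbol of a member, and all 43 were present among 15767 genes. The cells were Neuro-2a, an established line from a mouse neuroblastoma with its genotype given as WT, and 12 RNA libraries were sequenced, 4 for each of 3 transfections. The first group received a miR-155 mimic, a small RNA that supplies the microRNA, the second an inhibitor that blocks it, and the third a control small RNA (miR-Con). All 3 groups were transfected with the reagent RNA Fit without serum or antibiotics, had their medium changed after 4 h and were grown to day 2. A serum content of 10% is also given for the culture of all 12 libraries. Each group carries the replicate numbers 1 to 4, and the labels do not say whether a number stands for a culture, a day or a batch. They also do not say that the libraries came from separate cultures, so the p-values rest on a spread between libraries that may be technical. Neither miR-155 nor uptake of the reagents was measured in the values used here, and Neuro-2a is a single tumour line.

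NRF2, encoded by Nfe2l2, is a transcription factor that KEAP1 captures and hands to a ubiquitin ligase. Oxidants and electrophiles modify KEAP1, NRF2 then accumulates, joins a small MAF protein and binds antioxidant response elements near genes for glutathione synthesis, thioredoxin reductase, quinone reductase and the NADPH-making enzymes of the pentose phosphate pathway. NADPH is the shared fuel: glutathione reductase uses it to renew glutathione, and thioredoxin reductase uses it to renew thioredoxin, which in turn serves the peroxiredoxins. A microRNA lowers its targets mostly through pairing of its seed, bases 2 to 8, with 3′ untranslated regions (3′ UTRs), and BACH1, a repressor that competes with NRF2 at the same elements, is a widely reported target of miR-155.

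The mature strand of the microRNA and 2 seed matches, in Nfe2l2 and Bach1, are printed to show what the mimic and the inhibitor would act on. Sites were listed for the 43 members and for Bach1, and the other genes of the pathway were not ranked by their sites. The microRNA is RefSeq's mmu-miR-155-5p on GRCm38.p6, chr16:84714143-84714165, plus strand, with the seed in capitals. Beneath it are the sites in the longest annotated 3′ UTRs (GENCODE M21, mRNA sense, GRCm38), with the bases that match in capitals. Both are 8mer sites, meaning a match to the whole seed followed by an A.
mmu-miR-155-5p: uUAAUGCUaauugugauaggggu
Nfe2l2 3′ UTR, position 151 of 451, chromosome 2: aaactttacaaAGCATTAAagtctcaatgt
Bach1 3′ UTR, position 2320 of 3478, chromosome 16: atgaacagtttAGCATTAAgggttaatttt
Among the 43 genes, 5 held any 8mer or 7mer site (11.6%), against 13.3% of 15670 genes with a 3′ UTR. Nfe2l2 was the sole member with an 8mer (2.33%, against 2.99% of all genes). Sod2 and Gpx7 held a 7mer that matches the whole seed, while Gstm5 and Gsr held a 7mer that matches the seed without its last base and is followed by an A. Bach1, which is not among the 43, also had a second, 7mer site. A match is a description of these letters and not a measured binding site.

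The antioxidant genes were well expressed in these cells. In TPM, a unit of transcript abundance that corrects for gene length and library total and so allows levels of different genes to be compared, 23 of the 43 had a mean over the 12 libraries of at least 100, 14 lay between 10 and 100, 4 between 1 and 10, and 2 below 1. Their median was 118 TPM, against 19.5 TPM over the 13014 genes that passed the filter on low counts. Together they made up 0.803% of all TPM, with a sum of 7754 to 8187 in mimic, 7933 to 8239 in inhibitor and 7820 to 8098 in control libraries.

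The thioredoxin and peroxiredoxin arm stood at the top of the order of levels. Txn1, the cytosolic thioredoxin, was the highest member at a mean of 1158 TPM, followed by the mitochondrial peroxiredoxin Prdx3 (739 TPM), the endoplasmic reticulum peroxiredoxin Prdx4 (450 TPM), the copper-zinc superoxide dismutase Sod1 (431 TPM) and the cytosolic peroxiredoxin Prdx1 (424 TPM). Neighbours in that order can overlap from library to library, as Sod1 and Prdx1 did, with Sod1 at 389 to 461 TPM and Prdx1 at 361 to 468 TPM. In the pentose phosphate group, G6pdx, which makes the first NADPH of the pathway, averaged 375 TPM, transaldolase (Taldo1) 311 TPM, 6-phosphogluconate dehydrogenase (Pgd) 261 TPM and transketolase (Tkt) 206 TPM.

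Levels within an enzyme family were uneven. Of the glutathione peroxidases, Gpx1, which clears hydrogen peroxide, averaged 281 TPM and Gpx4, which clears lipid peroxides, 161 TPM. Gpx7, an endoplasmic reticulum peroxidase, averaged 0.664 TPM with counts of 34, 5, 6 and 3 in mimic, 15, 20, 0 and 0 in inhibitor and 7, 12, 27 and 9 in control libraries. Gpx8, its close relative, had 5 counts in control 1 (0.271 TPM) and 0 in the other 11 libraries, where a limit of 3 counts allows up to 0.0494 CPM (counts scaled to the library total). It was the only member that failed the filter, so 42 members were tested.

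Among the glutathione transferases, which attach glutathione to electrophiles, Gstp1 averaged 305.5 TPM, Gstm5 95.03 TPM, Gstm1 44.0 TPM and Gsta4 3.35 TPM. Of the glutathione synthesis genes, Gsr, the reductase that renews glutathione, reached 275 TPM. The catalytic and modifier subunits of the rate-limiting glutamate-cysteine ligase, Gclc and Gclm, averaged 118 and 76.5 TPM, and glutathione synthetase (Gss) 15.9 TPM. The mitochondrial thioredoxin Txn2 (337 TPM) was far above its reductase Txnrd2 (13.8 TPM), whereas the cytosolic reductase Txnrd1 averaged 172 TPM. Txn1, Gstp1, Prdx1 and the Gstm genes have close copies or pseudogenes in the mouse genome, and how reads were divided between copies is not given in the sources used here, so their levels are uncertain.

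**Figure D1:**
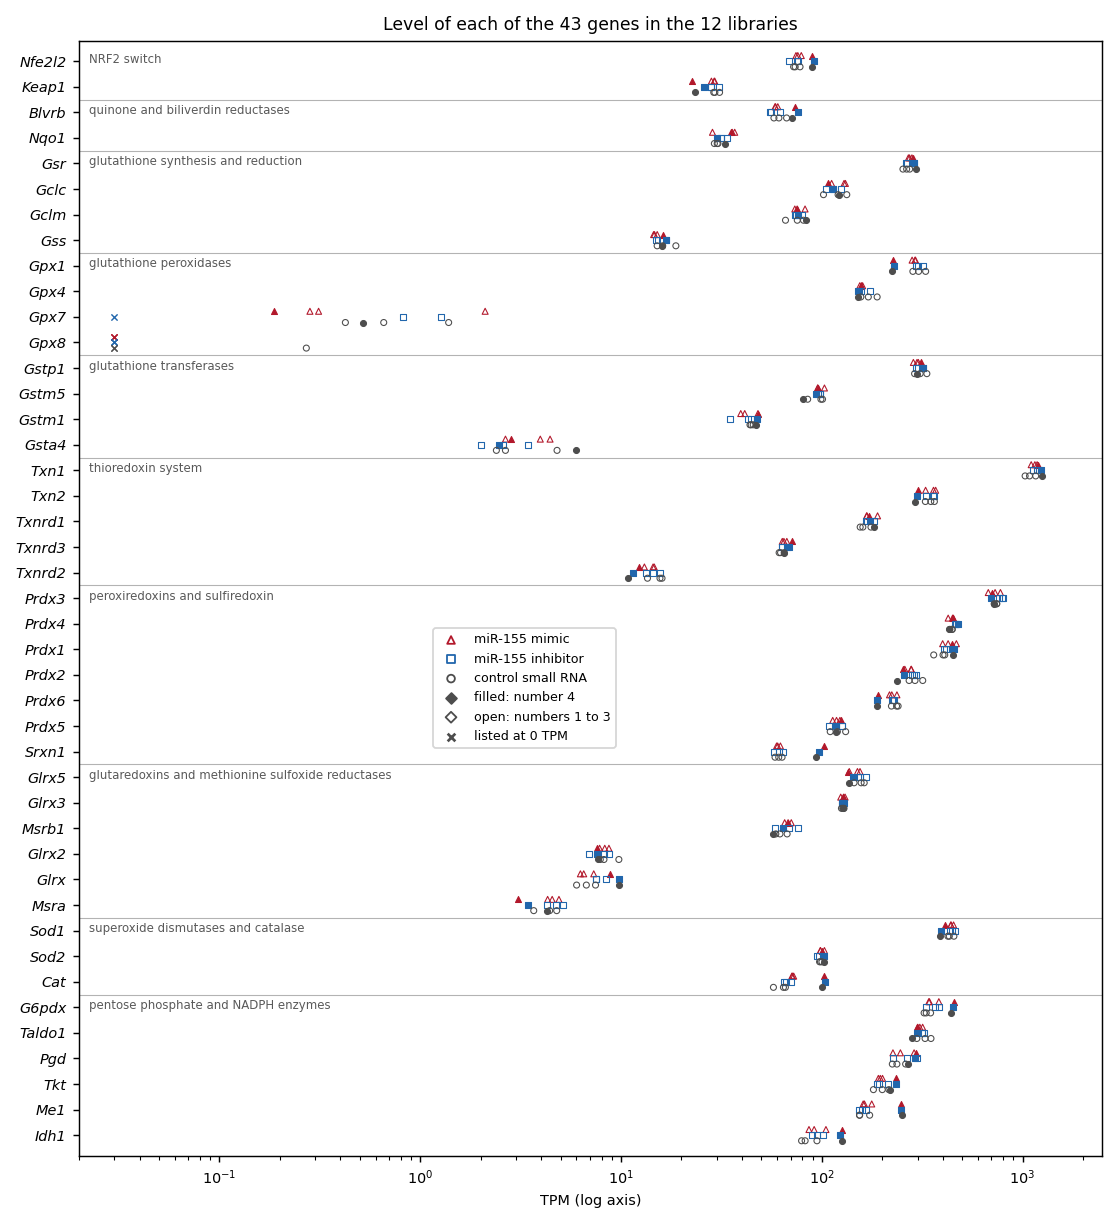
Level of each of the 43 genes in every library, in TPM on a log axis, grouped by role. Triangles stand for mimic, squares for inhibitor and circles for control libraries, filled for replicate number 4 and open for numbers 1 to 3, with crosses for a value listed at 0. Txn1 lies furthest right at a mean of 1158 TPM and Gpx7 and Gpx8 furthest left, and the filled symbols of Srxn1, Cat, Me1 and Idh1 lie right of their open ones.

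The spread of a member over the 12 libraries was small. The coefficient of variation was under 10% in 29 of the 42 tested members, with a median of 8.49% against 13.1% over all genes tested. The members' levels were higher (median 118 TPM against 19.5 TPM), and genes of like level were not compared. Glrx3, a glutaredoxin that handles iron-sulfur clusters, was the steadiest at 1.42%, with 124 to 131 TPM. Srxn1 (24.1%), Me1 (21.7%) and Cat (21.6%) varied more than any other member above 10 TPM.

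The 12 libraries were not alike before treatment is considered. The 3 libraries with replicate number 4, which come from the 3 different transfections, differed from the 9 numbered 1 to 3 by the test used below in 41.5% of all genes. Among those 9, control 2 held the highest or the lowest value of 20 of the 42 members, against 50.9% of all genes. The counts of members called, their medians and the members named for their smallest p in the treatment comparisons were therefore also computed on the libraries numbered 1 to 3 alone and with each library left out.

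No member passed the test for an effect of the mimic or of the inhibitor. In edgeR's quasi-likelihood test with group as the only term and Benjamini-Hochberg adjustment over all 13014 genes, 0 of 42 members were called at an adjusted p under 0.05 in mimic against control, in inhibitor against control and in mimic against inhibitor. In each of these comparisons the share of all genes called was also 0. No member had an unadjusted p under 0.05 in any of them, whereas 71, 67 and 77 of all genes did, and DESeq2 called 0 members and 3, 1 and 6 of all genes. These counts are far below a share of 0.05 of 13014 genes, which evenly spread p-values would give. The fit has no term for the replicate number, so differences between numbers add to its spread. With the number as a block, 191, 161 and 139 of all genes had an unadjusted p under 0.05. With the libraries numbered 1 to 3 alone, 379, 189 and 163 did, also below a share of 0.05. The cause of the few small p-values was not tested. By these counts the test was strict, and its 0 calls do not show that treatment had no effect. With the libraries numbered 1 to 3 alone, edgeR again called 0 members and 0 genes in all 3 comparisons.

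Differences between treatment groups were small beside the spread of their libraries. The log2 fold changes of the 42 members had a median of −0.0201 for mimic minus control, with 16 above 0 and 26 below, against a median of −0.0068 over all genes. For inhibitor minus control the median was 0.00922, with 24 above and 18 below, against −0.00993 over all genes. For mimic minus inhibitor it was −0.0211, with 10 above and 32 below, against 0.00243 over all genes. Changes stayed within 0.25 on the log2 scale for 42, 40 and 40 members in the 3 comparisons.

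Both genes of the NRF2 switch differed between groups by less than the spread of their libraries. Nfe2l2, the member with the 8mer, had 79.1, 76.0, 74.4 and 89.3 TPM in mimic 1 to 4, 68.9, 75.6, 76.2 and 91.9 TPM in inhibitor 1 to 4, and 78.0, 72.4, 73.8 and 89.1 TPM in control 1 to 4. The groups overlapped, and library 4 was the highest of each. The log2 fold change was 0.00 ± 0.10 (SE) for mimic minus control, with a 95% interval of −0.22 to 0.23. Keap1, its inhibitor, had 29.1, 28.2, 29.3 and 22.7 TPM in mimic, 30.7, 28.2, 28.1 and 26.0 TPM in inhibitor and 29.0, 31.0, 29.4 and 23.4 TPM in control libraries. Its log2 fold changes were −0.08 ± 0.11 for mimic minus control and 0.00 ± 0.11 for inhibitor minus control. Library 4 was the lowest Keap1 library of each group.

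Bach1, the repressor with the other printed 8mer, was not called in any treatment comparison. It had 9.04, 11.1, 7.92 and 9.11 TPM in mimic, 8.42, 8.84, 8.39 and 11.4 TPM in inhibitor and 9.92, 5.88, 7.43 and 13.1 TPM in control libraries. Its log2 fold change was 0.02 for mimic minus control and 0.04 for inhibitor minus control. The control libraries alone spanned the values of both other groups. The members with 7mer sites were likewise not called: mimic minus control was −0.02 for Sod2, 0.06 for Gstm5, 0.01 for Gsr and −0.13 for Gpx7, whose low counts left a 95% interval of −2.39 to 2.14.

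None of the classic NRF2 targets was called for treatment either. Nqo1, the quinone reductase often used as an NRF2 readout, had 28.6, 35.8, 36.9 and 35.2 TPM in mimic, 33.7, 31.6, 31.6 and 29.9 TPM in inhibitor and 29.2, 30.2, 30.4 and 32.9 TPM in control libraries. Mimic 2, 3 and 4 were above every control library and mimic 1 was below them all, with a log2 fold change of 0.13 ± 0.12. Gclc had 129, 131, 112 and 107 TPM in mimic, 106, 125, 114 and 114 TPM in inhibitor and 133, 102, 121 and 121 TPM in control libraries. Gclm, its partner subunit, had 73.4, 82.6, 75.4 and 75.7 TPM in mimic, 74.3, 80.05, 73.8 and 76.5 TPM in inhibitor and 81.1, 66.0, 75.5 and 83.3 TPM in control libraries. For both subunits the 3 groups overlapped, and control libraries held both the highest and the lowest value. Txnrd1 had 167, 190, 168 and 172 TPM in mimic, 167, 182, 168 and 174 TPM in inhibitor and 176, 155.4, 160 and 182 TPM in control libraries. Its log2 fold change was 0.02 ± 0.06 for mimic minus control and 0.04 ± 0.06 for inhibitor minus control.

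Srxn1 and G6pdx followed the replicate number within each treatment. Srxn1 had 60.3, 59.6, 62.3 and 103 TPM in mimic 1 to 4, 57.5, 61.3, 63.8 and 97.3 TPM in inhibitor 1 to 4, and 63.4, 58.5, 61.1 and 93.5 TPM in control 1 to 4. Its log2 fold change was 0.03 ± 0.23 for mimic minus control, with a 95% interval of −0.47 to 0.52, and the fourth library of each group stood far above the others. G6pdx had 344, 383, 341 and 455 TPM in mimic, 384, 366, 329 and 452 TPM in inhibitor and 331, 348, 324 and 439 TPM in control libraries, a change of 0.05 ± 0.14 for mimic minus control.

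For mimic minus control, the members with the smallest unadjusted p were Gss (−0.16 ± 0.10), Gpx4 (−0.12 ± 0.09) and Nqo1, all at an adjusted p of 1 in edgeR. Gss had 15.2, 14.7, 14.5 and 16.2 TPM in mimic, 16.9, 15.0, 15.2 and 16.7 TPM in inhibitor and 15.1, 18.8, 16.1 and 16.003 TPM in control libraries, and its highest value was in control 2. Gpx4 had 159.8, 157.7, 154.7 and 156.7 TPM in mimic, 174, 152, 158 and 153 TPM in inhibitor and 157, 189, 171 and 152 TPM in control libraries, again with control 2 at the top. Without control 2 the changes were −0.06 for Gss and −0.03 for Gpx4, and that of Nqo1 ranged from 0.08 without mimic 3 to 0.23 without mimic 1. The lowest control library was below all mimic libraries for Gpx4.

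Prdx4 was the only member whose treatment groups did not overlap. It had 426, 452, 449 and 451 TPM in mimic, 466, 459, 464 and 475 TPM in inhibitor and 447, 435, 446 and 432 TPM in control libraries, so each inhibitor library was above each mimic and each control library. That is 1 of 42 members, where 0.676% of all genes tested did not overlap between inhibitor and control and 0.914% did not overlap between mimic and inhibitor. No member separated mimic from control, where 0.638% of all genes did. The differences were 0.09 ± 0.06 for inhibitor minus control and −0.10 ± 0.06 for mimic minus inhibitor on the log2 scale, both at an adjusted p of 1 in edgeR.

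The other members with the smallest p also had overlapping groups. Gsta4, a transferase for lipid-derived aldehydes, had 2.01, 2.58, 3.44 and 2.48 TPM in inhibitor and 2.40, 4.80, 2.66 and 5.97 TPM in control libraries, a log2 fold change of −0.60 ± 0.33 (edgeR adjusted p of 1). With single libraries left out the change ranged from −0.78 without control 1 to −0.35 without control 4. Control 2 and control 4 were high and the other control libraries lay among the inhibitor libraries. Prdx1 had 418, 455, 407 and 448 TPM in inhibitor and 410, 361, 402 and 452 TPM in control libraries, a change of 0.09 ± 0.07 (0.06 without control 2 and 0.14 without control 4). Its lowest value was again in control 2. For mimic minus inhibitor, Prdx3 had 675, 730, 776 and 708 TPM in mimic and 765, 798, 791 and 695 TPM in inhibitor libraries, a difference of −0.10 ± 0.07. Glrx5, a mitochondrial glutaredoxin for iron-sulfur cluster assembly, had 137, 151, 155.1 and 136 TPM in mimic and 167, 154.8, 151 and 144 TPM in inhibitor libraries, a difference of −0.12 ± 0.09. For both genes the mimic and inhibitor libraries overlapped. With single libraries left out the difference ranged from −0.15 to −0.06 for Prdx3 and from −0.16 to −0.07 for Glrx5.

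**Figure D2:**
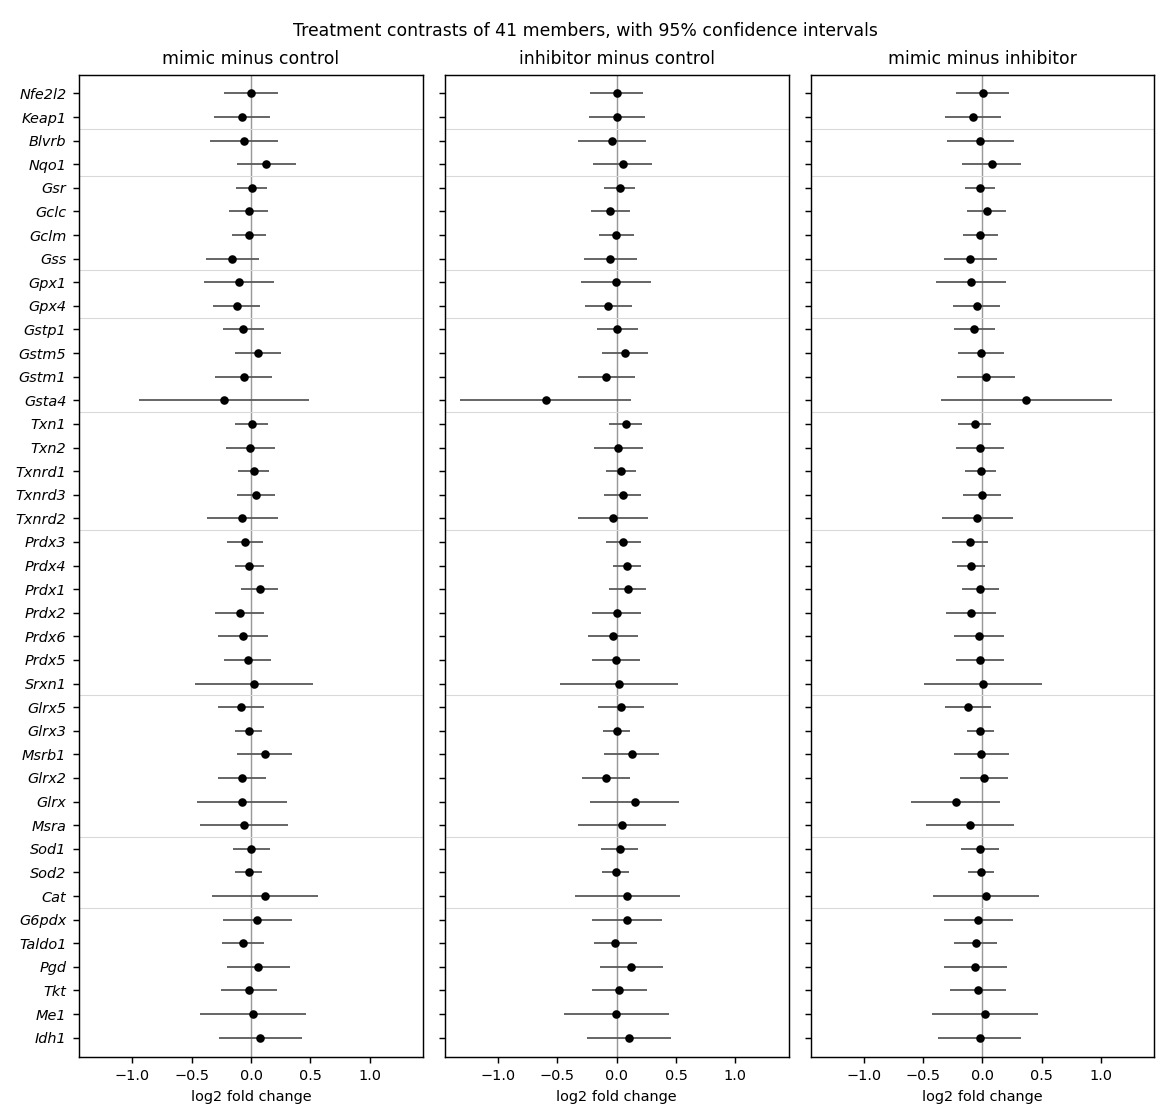
Log2 fold changes of the tested members other than Gpx7, whose interval is too wide to draw, in the 3 treatment comparisons. Points are estimates from the edgeR fit and lines their 95% confidence intervals. Every line crosses 0, and Gsta4 in inhibitor minus control lies furthest from it at −0.60.

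More members were called by replicate number than by treatment. That the numbers differ was known from earlier results of these data when number 4 was set against the rest. The p-values of this comparison are therefore not those of a comparison fixed beforehand. In a fit with both treatment group and replicate number, the 3 libraries numbered 4 were compared with the 9 numbered 1 to 3, and 16 of 42 members were called (38.1%), against 41.5% of all genes. Of these, 11 were higher (20.4% of all genes were called higher) and 5 were lower (21.1% of all genes). Limma on log2(TPM + 1) called 9 members higher and 8 lower. It called 44.9% of 11621 genes, 2118 higher and 3100 lower. The median absolute log2 fold change was 0.132 in members and 0.231 over all genes, whose levels were lower, and this difference was not tested. On TPM, all 3 libraries numbered 4 were above all 9 others in 9 members and below them in 7, against 15.6% and 21% of all genes, or 36.6% in either direction. In bulk RNA, a change in the share of a kind of cell and a change in RNA per cell cannot be told apart. Without inhibitor 4, 10 members were called (28.6% of all genes), and without control 2, 19 were called (50.2% of all genes). Without the 4 mimic libraries, 9 were called (24.3% of all genes).

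**Figure D3:**
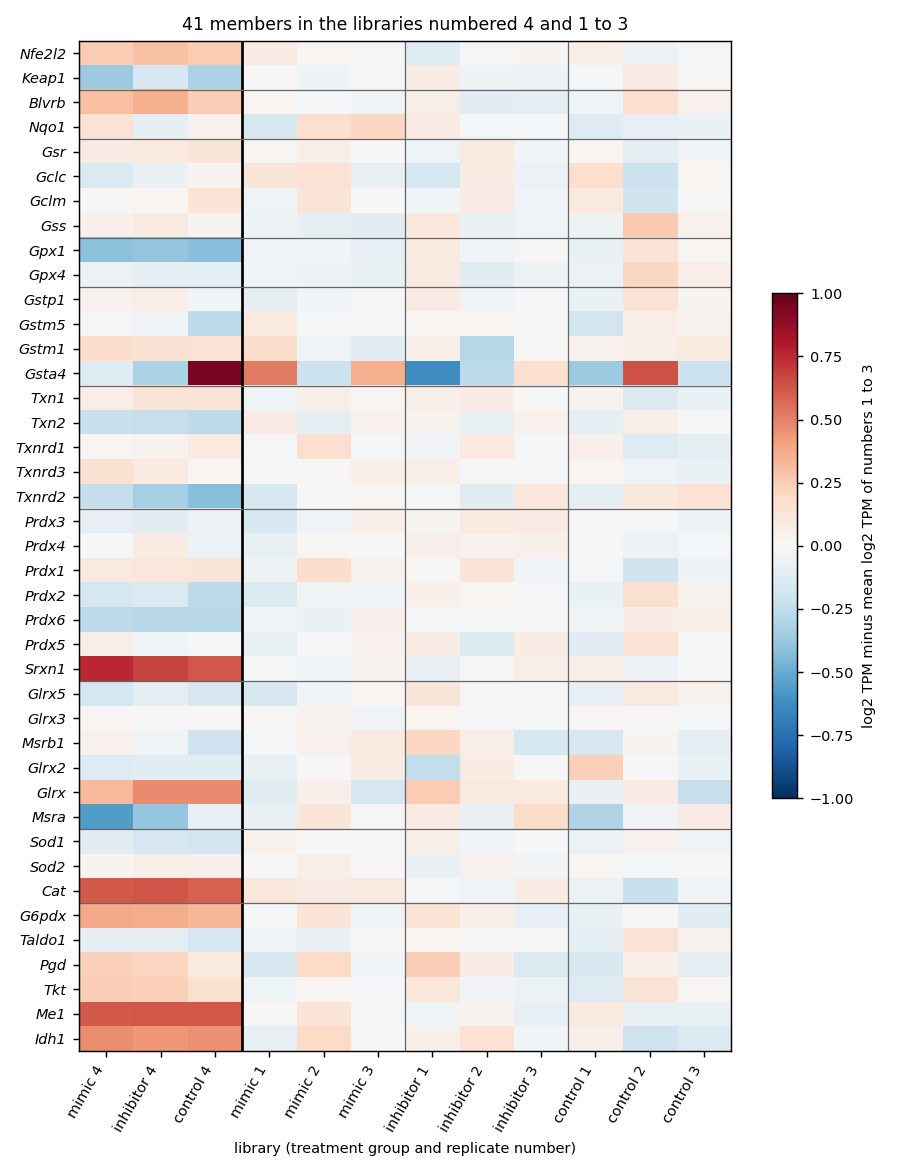
Tested members other than Gpx7 in each library, as log2 TPM minus the mean log2 TPM of the 9 libraries numbered 1 to 3, with red higher and blue lower. The 3 columns left of the black line are mimic 4, inhibitor 4 and control 4, which share their colours for Srxn1, Cat, Me1, Idh1 and Gpx1, while Gsta4 varies without regard to number.

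The pentose phosphate and NADPH enzymes had 4 of 6 members called higher and 0 lower, where 20.4% and 21.1% of all genes were. Me1, the cytosolic malic enzyme, had 249, 249 and 250 TPM in mimic 4, inhibitor 4 and control 4, against a lowest, median and highest of 153, 161 and 177 TPM in numbers 1 to 3. Every library numbered 4 was above every other, the log2 fold change was 0.64 ± 0.04 (1.56-fold) and the edgeR adjusted p was 1.84e-06. Idh1, the cytosolic isocitrate dehydrogenase, had 126, 123.4 and 126 TPM in the libraries numbered 4, against 79.4 to 105 TPM in numbers 1 to 3, a change of 0.47 ± 0.06. G6pdx had 455, 452 and 439 TPM in number 4, against 324 to 384 TPM in numbers 1 to 3, a change of 0.38 ± 0.06. These 3 genes were called under each leave-one-out fit.

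Tkt, which moves sugar carbons in the non-oxidative branch, had 235, 234 and 220 TPM in number 4, against 181 to 216 TPM in numbers 1 to 3. Its change of 0.23 ± 0.08 (edgeR adjusted p = 0.0337) was no longer called in 7 of the 12 leave-one-out fits. Pgd, the dehydrogenase after G6pdx, had 296, 291 and 269 TPM in number 4 and 224.7 to 298 TPM in numbers 1 to 3, an overlap, and was not called (0.20, adjusted p = 0.110). Taldo1 was not called either (−0.10). G6pdx shares exon sequence with Ikbkg on the opposite strand, and without stated strandedness reads from the overlap cannot be assigned.

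Srxn1 and Cat had the other large rises. Srxn1, sulfiredoxin, which restores overoxidised peroxiredoxins, had 103, 97.3 and 93.5 TPM in mimic 4, inhibitor 4 and control 4, against 57.5, 61.1 and 63.8 TPM as the lowest, median and highest of numbers 1 to 3. The libraries do not overlap, and the log2 fold change was 0.70 ± 0.05 (1.63-fold, edgeR adjusted p = 6.05e-06), the highest of the 42. Cat, catalase, which breaks down hydrogen peroxide in peroxisomes, had 103, 104 and 101 TPM in number 4, against 57.5 to 72.5 TPM in numbers 1 to 3, a change of 0.63 ± 0.05. The superoxide dismutases did not share this direction: Sod2 was at 0.06 and Sod1 at −0.14, and neither was called.

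The switch genes moved in opposite directions. Nfe2l2 averaged 90.1 ± 1.56 TPM in number 4 (SD, n = 3) and 74.9 ± 3.03 TPM in numbers 1 to 3 (SD, n = 9), a change of 0.29 ± 0.05 called in every leave-one-out fit. Keap1 averaged 24.0 ± 1.73 TPM in number 4 and 29.2 ± 1.04 TPM in numbers 1 to 3, a change of −0.27 ± 0.07. Its call was lost without control 4 and without mimic 4. On TPM the libraries numbered 4 were all above the others for Nfe2l2 and all below them for Keap1.

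The classic targets split into called and not called. Beside Srxn1, G6pdx and Me1, the reductase Gsr rose by a small amount (0.12 ± 0.04, edgeR adjusted p = 0.0246), and its call was lost in 6 leave-one-out fits. Nqo1 averaged 32.7 ± 2.65 TPM in number 4 and 32.0 ± 2.89 TPM in numbers 1 to 3, a difference of 0.05 with a 95% interval of −0.18 to 0.28. Gclc differed by −0.04 (−0.19 to 0.11), Gclm by 0.07 (−0.06 to 0.20) and Txnrd1 by 0.07 (−0.04 to 0.17). The upper bounds for these 4 genes lie below the lower bounds for Srxn1 (0.58), Me1 (0.55) and Cat (0.53), the members with the greatest rises. The same did not hold for every called target: the lower bound for Gsr (0.04) lies below all 4 upper bounds. G6pdx, which rose less than Srxn1 and Me1, was not compared in this way. Blvrb, which reduces biliverdin and flavins, was called higher (0.32 ± 0.08), and the call was lost without inhibitor 4 (0.27) and without mimic 4 (0.29).

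**Figure D4:**
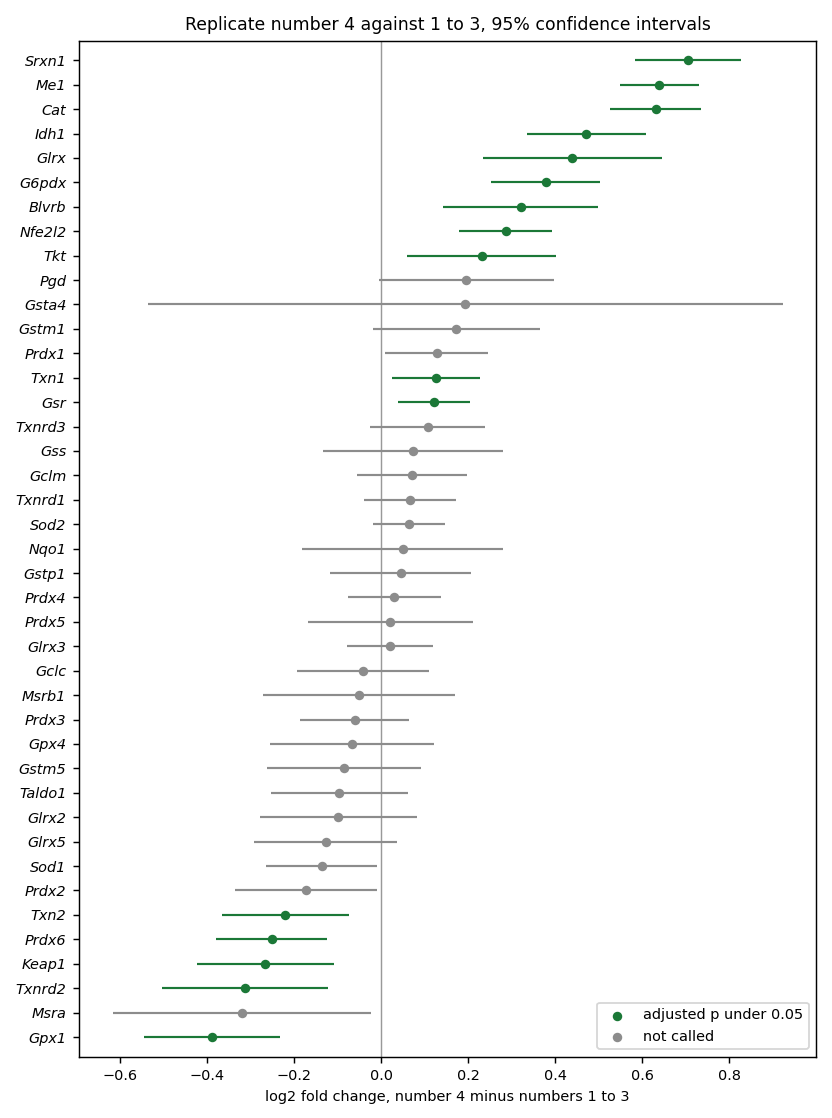
Log2 fold change of number 4 minus numbers 1 to 3 for the tested members other than Gpx7, in descending order, with 95% confidence intervals from the edgeR fit. The 16 called members are green, from Srxn1 at 0.70 to Gpx1 at −0.39, and the others grey.

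The other 4 members called lower were Gpx1, Prdx6, Txnrd2 and Txn2. Gpx1 had 226, 228 and 224 TPM in mimic 4, inhibitor 4 and control 4, against 282, 293 and 329 TPM as the lowest, median and highest of numbers 1 to 3, a change of −0.39 ± 0.07 (edgeR adjusted p = 0.00134). Prdx6, a peroxiredoxin that uses glutathione, had 190, 189 and 189 TPM in number 4, against 218 to 240 TPM in numbers 1 to 3, a change of −0.25 ± 0.06. Both stayed called with each library left out, and neither overlapped between number 4 and the rest. Txnrd2 had 12.3, 11.5 and 10.8 TPM in number 4 and 13.1 to 16.01 TPM in numbers 1 to 3, a change of −0.31 ± 0.09, and its partner Txn2 fell by 0.22 ± 0.07. Both calls were lost without control 4 and without inhibitor 4.

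**Figure D5:**
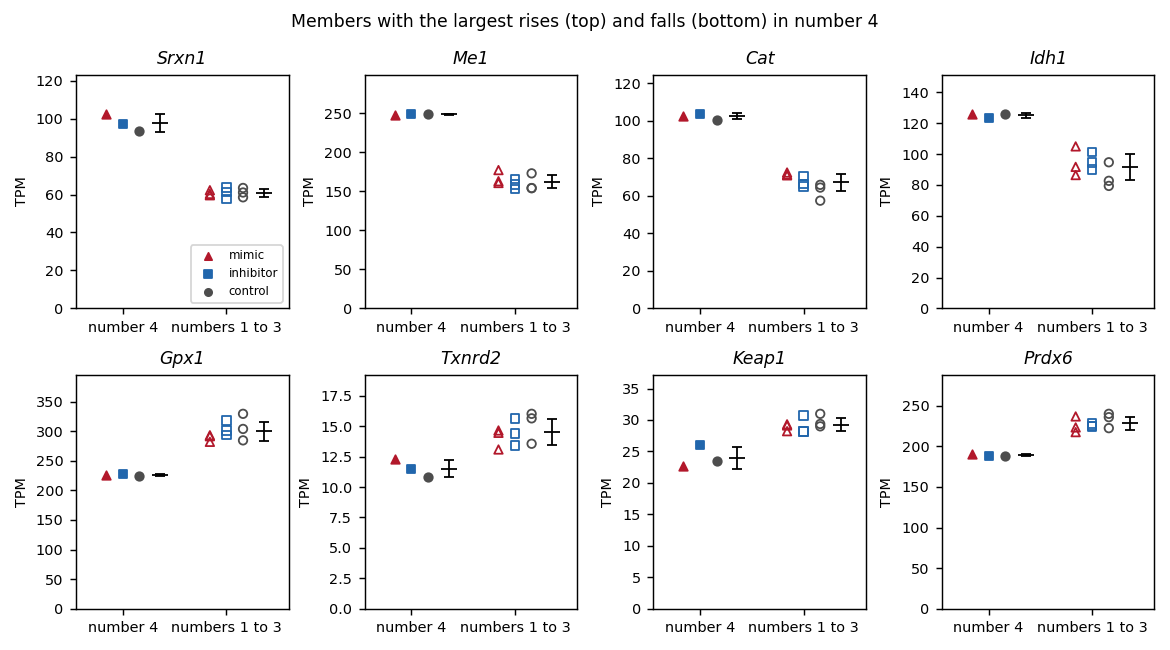
TPM of the 4 members with the greatest rises and the 4 with the greatest falls among those called, with number 4 left and numbers 1 to 3 right. Symbols give the treatment group and bars the mean and SD (n = 3 and n = 9). In each panel the filled symbols of the 3 groups lie together and apart from all open ones.

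The thioredoxin systems of cytosol and mitochondrion thus gave different calls, a difference that was not itself tested. Txn1 averaged 1224 ± 31.3 TPM in number 4 and 1137 ± 55.1 TPM in numbers 1 to 3, a change of 0.13 ± 0.05 (edgeR adjusted p = 0.0457) that was lost in 8 leave-one-out fits. Of 6 members that work mainly in mitochondria (Txn2, Txnrd2, Prdx3, Sod2, Glrx2 and Glrx5), grouped after their values were seen, 2 were lower and 0 higher. Of 6 selenoproteins, enzymes with selenocysteine in the active site (Gpx1, Gpx4, Txnrd1, Txnrd2, Txnrd3 and Msrb1), also grouped afterwards, 2 were lower and 0 higher. Txnrd2 stands in both groups, and 21.1% of all genes were called lower.

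Of the 6 glutaredoxins and methionine sulfoxide reductases, 1 was called higher and 0 lower, where 20.4% and 21.1% of all genes were. Glrx, the cytosolic glutaredoxin, had 8.81, 9.80 and 9.76 TPM in number 4, against 6.01 to 8.40 TPM in numbers 1 to 3, and rose by 0.44 ± 0.09. Its call was lost without the 4 mimic libraries (adjusted p = 0.0602). The other glutaredoxins and the methionine sulfoxide reductases, which repair oxidised methionine, were not called, with changes from −0.32 for Msra to 0.02 for Glrx3. None of the 4 glutathione transferases was called, where 41.5% of all genes were. Their changes were 0.19 for Gsta4, 0.17 for Gstm1, 0.05 for Gstp1 and −0.09 for Gstm5. Among the peroxiredoxins, Prdx2 (−0.17) lay below all other libraries in number 4 without being called, as did Sod1, and Prdx1, Prdx3, Prdx4 and Prdx5 ranged from −0.06 to 0.13.

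No dependence of the number 4 difference on treatment was detected in the members. Each group holds only 1 library numbered 4, so a dependence could hardly have been detected. A test of whether number 4 differed from the rest by unequal amounts in the 3 groups, added after seeing the data, called 0 members and 0.0538% of all genes in edgeR. Fitted on 2 groups at a time, number 4 gave 17 called members without control libraries (41.6% of all genes), 11 without inhibitor libraries (26.2%) and 9 without mimic libraries (24.3%). Among the numbers 1 to 3, number 3 against numbers 1 and 2 called 0 members and 0 of all genes in edgeR, with 282 genes at an unadjusted p under 0.05 and 89 genes called by DESeq2. Without control 2, however, edgeR called 569 genes in that contrast, 73 higher and 496 lower, and without all control libraries 20. An F test over the 4 numbers called 9 members, against 27.3% of all genes.

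Stretches of member promoters are printed to show the motif to which NRF2 binds. RefSeq start sites on GRCm38.p6 gave windows from 250 bases before to 50 after the start for 38 of the 43 genes, and Gsta4, Prdx6, Gclc, Gsr and Msra had no entry. The core of the antioxidant response element was searched on both strands as TGACNNNGC. It occurred in 10 of the 38 members (26.3%), against 14% of all genes with a window, expressed here or not. A gene counted when any of its windows held the motif. By window the shares were 19.2% of 52 in members and 12.4% of 32851 in all genes. The windows below show that motif in capitals, read in the direction of the gene, for 4 members that rose in number 4 and for Gclm and Txnrd1, which did not pass the test.
Srxn1, chr2:152105542-152105570, plus strand: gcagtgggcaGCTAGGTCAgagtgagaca
Me1, chr9:86695902-86695930, minus strand: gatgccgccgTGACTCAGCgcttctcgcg
G6pdx, chrX:74428919-74428947, minus strand: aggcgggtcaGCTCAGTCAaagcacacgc
Nfe2l2, chr2:75704885-75704913, minus strand: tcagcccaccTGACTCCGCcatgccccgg
Gclm, chr3:122245413-122245441, plus strand: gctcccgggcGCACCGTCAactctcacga
Txnrd1, chr10:82859104-82859132, plus strand: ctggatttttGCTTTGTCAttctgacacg
Of the 10 members with the motif, these first 4 were higher in number 4, 0 were lower and 6 were not called, with a median log2 fold change of 0.162. The alternative core TGAGNNNGC, searched after seeing the data, occurred in 9 members (23.7%), against 19.8% of all genes. By window the shares were 17.3% and 17.6%. Of the 9 members, 3 were higher, 1 was lower and 5 were not called, with a median of 0.106. The 16 members with either core had 6 higher, 1 lower and 9 not called, with a median of 0.117. The 21 tested members with neither motif had 4 higher, 3 lower and 14 not called, with a median of 0.02. Of all genes, 20.4% were called higher and 21.1% lower, and no difference between these sets was tested.

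The strictest form, TGACTCAGC, which contains the AP-1 motif TGACTCA, was found in 2 members, Me1 as printed and Prdx1, against 0.503% of all genes. Srxn1, the member with the highest change, had 3 matches to the 2 cores in its 300-base window on chr2:152105274-152105573, plus strand, shown with each match in capitals.
Srxn1: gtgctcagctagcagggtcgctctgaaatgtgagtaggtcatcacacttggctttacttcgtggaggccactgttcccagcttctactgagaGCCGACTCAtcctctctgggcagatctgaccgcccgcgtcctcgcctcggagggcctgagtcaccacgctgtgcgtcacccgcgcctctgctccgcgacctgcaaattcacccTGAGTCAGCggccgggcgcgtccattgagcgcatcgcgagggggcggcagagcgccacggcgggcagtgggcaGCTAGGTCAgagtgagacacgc
These matches describe letters in the window, and NRF2 binding was not measured.

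Other genes of the pathway, 119 of 123 listed and 107 tested, were called in number 4 at a like rate, with 26 higher and 16 lower (39.3%, against 41.5% of all genes). The counts for its lists that follow stand beside 20.4% of all genes called higher and 21.1% called lower, and no list was tested against the rest. In the 3 treatment comparisons 0 of the 107 were called, where 0% of all genes were. Of the NRF2 partners and repressors, 4 of 13 were higher and 2 lower. Maff, a small MAF partner, had 60.3, 58.6 and 53.8 TPM in number 4, against 29.1 to 32.6 TPM in numbers 1 to 3, a change of 0.91 ± 0.07. Bach1 (0.42 ± 0.15, edgeR adjusted p = 0.0407) and Cul3, the scaffold of KEAP1's ubiquitin ligase (0.37 ± 0.13), were called higher, but not in 8 and 7 of the leave-one-out fits.

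Of 15 tested further NRF2 targets, 5 were higher and 2 lower. Hmox1, heme oxygenase, had 389, 380 and 377 TPM in number 4, against 256 to 290 TPM in numbers 1 to 3, a change of 0.48 ± 0.07. The carbonyl reductase Cbr3 (0.57) and the UDP-glucose dehydrogenase Ugdh (0.56) were also higher. Txnip, which binds and inhibits thioredoxin and responds to glucose, had 29.4, 26.2 and 28.8 TPM in number 4, against 51.0 to 62.8 TPM in numbers 1 to 3, a fall by 1.01 ± 0.08.

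In the glutathione supply list, 3 of 25 tested genes were higher and 2 lower. Chac1, which degrades glutathione and belongs to the amino acid stress response, had 686, 708 and 670 TPM in number 4, against 1155 to 1309 TPM in numbers 1 to 3, a change of −0.80 ± 0.07. Gstt1, a theta-class transferase, was at 0.75 ± 0.17, and Cth, which makes cysteine, at −0.30 ± 0.11, lost in 9 leave-one-out fits. The further pentose phosphate and NADPH genes had 5 higher and 3 lower of 17. Rpia, ribose-5-phosphate isomerase, rose by 0.76 ± 0.06 and Prps2, which makes phosphoribosyl pyrophosphate, by 0.53 ± 0.08, while the sedoheptulose kinase Shpk was at −1.15 ± 0.14.

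Of 15 tested genes of further thiol and peroxide defence, 5 were higher and 2 lower. Ero1a, an oxidase of protein folding in the endoplasmic reticulum that is induced by hypoxia, had 343, 328 and 383 TPM in number 4, against 76.2 to 116 TPM in numbers 1 to 3. Its change of 1.91 ± 0.07 was the greatest rise among the pathway genes tested, members included. Msrb2, the mitochondrial methionine sulfoxide reductase, was at −1.07 ± 0.13 and Sesn2, a stress-induced sestrin, at −0.76 ± 0.05. Further selenoproteins had 2 higher and 4 lower of 13 tested, and the called genes of greatest change were Selenok at 0.35, Selenow at −0.35 and Selenoh at −0.34. Of 9 genes for selenoprotein synthesis 2 were higher (Lrp8 at 0.56 and Secisbp2l at 0.45) and 1 was lower (Sepsecs at −0.42), and the call of Secisbp2l was lost without control 4 and without inhibitor 4.

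Some markers of the cell line differed by the same replicate number. Of 14 markers of sympathetic neuroblastoma and neurons, 11 averaged at least 1 TPM, with Hand2 at 1776 TPM and Phox2a at 944 TPM, while Th averaged 1.15 TPM and Nefl and Nefm were near 0. Their sum was 7476 to 7697 TPM in number 4 and 7467 to 8365 TPM in numbers 1 to 3. In number 4, 6 of 11 tested were called lower and 1 higher (63.6%, against 41.5% of all genes). Among those lower were Gata3 (−0.74), Phox2a (−0.49), Dbh (−0.34), Hand2 (−0.22) and Chga (−0.15), and Tubb3 (0.44) was higher. Isl1 (0.22), Th (0.17), Chgb (0.07) and Stmn2 (−0.003) were not called. Fibroblast markers, 6 of 8 in the table, summed to 42.96 to 44.98 TPM in number 4 and 32.6 to 41.8 TPM in numbers 1 to 3, most of it Fn1, with Col1a2 at 0.0086 TPM. Glial markers, 6 of 8 in the table with Sox10 at 0.026 TPM, summed to 4.75 to 5.19 TPM in number 4 and 3.46 to 5.02 TPM in numbers 1 to 3. Immune and endothelial markers, 4 of 8 with Ptprc at 0.00074 TPM, summed to 2.77 to 3.04 TPM in number 4 and 1.74 to 2.73 TPM in numbers 1 to 3. The part of these marker shifts in the members' differences was not tested.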

How the data were processed

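The build GRCm39 and the tools STAR, featureCounts, StringTie, fastp and edgeR are named per the submitters' processing notes. Versions, roles, strandedness and annotation were not given there. The authors deposited whole-number counts per gene and TPM for 15767 genes in 12 libraries. Total counts per library ran from 60695388 to 74200532. Counts divided by deposited TPM were constant across libraries for a gene (median coefficient of variation 0.259% over 11851 genes), so TPM is no independent measurement. Levels here are deposited TPM, and tests used counts.

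Counts were joined by gene identifier, filtered with filterByExpr (13014 genes left), scaled with TMM and fitted with edgeR 4.0.16 in R 4.3.3 (robust quasi-likelihood, two-sided, Benjamini-Hochberg over all genes, called under 0.05). Treatment contrasts used group alone, and replicate-number contrasts group plus number. Limma 3.58.1 on log2(TPM + 1) or log2(TPM + 0.1), DESeq2 1.42.0, other scaling, no filter and left-out libraries were alternatives. A limit of 3 counts was used for 0 counts, and it covers counting error only. The edgeR and limma steps were tested on simulated data. Within groups no pair of libraries agreed within sampling noise.

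The members, pathway lists, named-gene rule and replicate-number contrasts were chosen with earlier results of these data known. The rule named the switch, 6 classic targets, the 3 members of smallest p per treatment contrast, the 4 greatest rises and falls in number 4, up to 3 called genes per other list, Bach1, Hmox1 and genes with seed sites. Sequences are RefSeq GRCm38.p6 and GENCODE M21 (GRCm38), a build other than the authors', matched by symbol or identifier. Some items of the marker list and overlaps are not reported here.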

Additional observations from a re-analysis of the deposited data

Results flagged for a closer look

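In 129 groups of 4 libraries (43 members in 3 treatment groups), the gap between an extreme library and its nearest neighbour, divided by the range of the group, was above Dixon's 95% critical value for 4 libraries in 14. Chance gives about 1 in 20 groups, or 6.45 here. Gpx8 had no counts in any mimic or inhibitor library, so those groups could not be flagged. Of the 14, 10 lay in a library numbered 4, and 41.5% of all genes were called in number 4. Flags over all genes were not counted. Srxn1 was flagged in all 3 groups, at 0.938 in mimic 4, 0.842 in inhibitor 4 and 0.859 in control 4, each the highest of its group. Cat was highest in mimic 4 (0.952) and inhibitor 4 (0.862), Me1 in inhibitor 4 (0.867) and Blvrb in mimic 4 (0.873). Gpx1 (0.835) and Keap1 (0.836) were lowest in mimic 4, and Prdx6 (0.907) in inhibitor 4. The other 4 lay in a library numbered 1. Gstm5 was highest in mimic 1 (0.978, 103 TPM against 95.4 to 95.6 TPM in mimic 2 to 4), Prdx4 lowest in mimic 1 (0.875), Gpx7 highest in mimic 1 (0.935) and Gpx8 highest in control 1 (1.0), where it alone had counts.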

How the results depend on the processing

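No member was called in a treatment contrast under any alternative run, and the members' median log2 fold change ranged from −0.0399 to 0.0088 (mimic minus control), −0.0105 to 0.059 (inhibitor minus control) and −0.0545 to 0.00865 (mimic minus inhibitor). With the replicate number as a block, 0 members were called in each treatment contrast, while 191, 161 and 139 of all genes had an unadjusted p under 0.05, against 71, 67 and 77 without it. Same-numbered libraries of different groups correlated in their deviations at −0.071 to 0.526, with 7 of 12 pairs above 0.1. The numbers were not taken as pairs, since that needed every pair above 0.1. That 9 of 12 libraries correlated best with their own number is a hint from the data, not the design. In number 4 against the rest, 9 members were called without the mimic libraries (24.3% of all genes). With single libraries left out 10 to 19 were called, the fewest without inhibitor 4 (28.6% of all genes) and the most without control 2 (50.2%). Limma on log2(TPM + 1) called 9 members higher and 8 lower, against 2118 and 3100 of 11621 genes. The F test over the numbers called 9 members in edgeR (27.3% of all genes) and 4 without the mimic libraries (6.05%). It called 14 under each of 3 limma settings (30.1%, 29.8% and, with no filter, 20.5% of all genes). With single libraries left out it called 5 to 17, the lowest without inhibitor 4 (13.7% of all genes) and the highest without control 2 (44.8%). Other pathway genes called in number 4 fell from 42 to 27 without the mimic and 27 without the inhibitor libraries. The share of all genes called fell from 41.5% to 24.3% and 26.2%. In number 3 against numbers 1 and 2, 0 to 3 of the other pathway genes were called with single libraries left out. The 3 were called without control 2, where 4.34% of all genes were. Gclc in number 4 changed sign without the mimic libraries (0.0043) and ranged from −0.081 to 0.0022 with single libraries left out. The cause was not tested. Of 966 alternatives for named genes in number 4, 867 kept direction and side of the threshold, 97 lost the call and 2 changed sign. Precision is limited by 4 libraries a group and, for Gpx7 and Gpx8, by depth.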
